A study of Caenorhabditis elegans with 8 samples.

Results

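The chemoreceptor genes of Caenorhabditis elegans are named by families, among them sra, srd, srh, sri, str and srw, and the odr genes were named for odorant response defects. Members were taken as every gene of the deposited table whose name consists of 1 of 22 family names and a number, which gave 39 of the 14541 genes. Of these 39 genes, 35 are receptor genes, and the other 4 are odr genes with other roles in olfaction. The 35, called receptors below, take in 2 annotated pseudogenes, sri-23 and srd-14. Chemoreceptors are multi-pass membrane receptors coupled to G proteins, and many of them act in the cilia of amphid and phasmid sensory neurons, where they detect food odors, repellents and pheromones. A single sensory neuron of this animal expresses many receptors, and most receptor genes have no known ligand. Their families are commonly grouped into the Str, Sra and Srg superfamilies, with the srbc, srsx, srw and srz families standing alone.

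Total RNA was isolated from whole animals, and mRNA libraries made from it were sequenced, 4 of pals-17(*) and 4 of the wild type. The pals-17(*) strain carries the syb3980 allele, a premature stop in pals-17, and was grown for 72 h at 20 °C from synchronized L1 larvae on OP50-1 bacteria. Wild-type N2 animals were grown on the same food at 20 °C for 48 h. The mutants develop slowly and asynchronously, so that the longer growth was meant to bring both strains close to the L4 stage and the mutant populations were of mixed stage. Genotype, growth time and stage therefore cannot be told apart in any comparison here. The labels number the replicates but do not say that they came from separate cultures, so p-values measure the spread between these libraries, which may be technical. All 8 libraries were run in the same lane, per the file headers.

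Recovered reads numbered between 18629170 and 21891721 per mutant library and between 17871320 and 23378799 per wild-type library. The values are given in CPM, which are counts per 1000000 reads of a library size scaled by the authors, and a single read was worth between 0.0362 and 0.0446 CPM in mutants and between 0.0522 and 0.0681 CPM in the wild type. The pals-17 gene itself had 4.60, 4.45, 4.07 and 4.36 CPM in mutants, against 15.04, 14.3, 15.5 and 19.3 CPM in the wild type. A gene was called higher or lower in mutants when limma's adjusted p, corrected over all 14541 genes, was under 0.05.

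Few chemoreceptor genes were in the table used here. The Ensembl annotation (release 115, WBcel235) holds 1307 protein-coding genes in the 22 families, and 37 of them (2.83%) were in the table, together with the annotated pseudogenes sri-23 and srd-14. No gene of the srm, srn, srt, sru, srxa, srbc and srz families was among them, although these 7 families hold 258 annotated genes. The largest family, srh, had 3 of its 220 annotated genes in the table, and the str family had 5 of 193. In contrast, 5 of the 7 annotated odr genes were listed. The sra family stood between these, with 4 of 35 genes. Chromosome V holds 67.6% of the annotated genes but 15 of the 39 members (38.5%), and chromosome II holds 12.9% of the annotated genes and 9 members (23.1%).

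The authors removed weakly expressed genes, and every gene left in the table reached 1 CPM of its library's total in at least 4 libraries. By this measure 14 members were at 1 CPM or more in all 8 libraries. Another 14 members reached it in all 4 mutant libraries but not in all 4 wild-type libraries, and 7 in all 4 wild-type libraries but not in all 4 mutant libraries. The remaining 4 members reached it in neither strain throughout. A member listed through 1 strain alone was chosen by its level in that strain, which favors a difference between strains. Under the deposited scaling sra-37, which was listed through the mutants alone, was not called. With libraries scaled to their totals, as in this measure, it was called higher (log2 fold change 0.83, limma, adjusted p = 0.00322). The counts below therefore describe the listed genes and are no evidence about the chemoreceptor families as a whole. For example, 11 members, such as odr-10 and sri-36, reached 1 CPM in all mutant libraries and in no wild-type library, whereas srx-58, srd-53 and str-31 did so in all wild-type libraries and in no mutant library.

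The listed genes moved in both directions, and about as often as all genes did. Of the 39 members, 17 (43.6%) were called higher in mutants, where 42.5% of all genes were called higher. Another 17 (43.6%) were called lower, where 41.2% of all genes were called lower. The other 5 members, which are sre-4, sra-6, sra-37, odr-3 and srg-34, were not called. For 17 members (43.6%) the lowest mutant library exceeded the highest wild-type library, compared with 41.2% of all genes, and for 16 members (41%) all mutant libraries were below all wild-type libraries, compared with 39% of all genes. Past a change of 4-fold, 11 members (28.2%) were higher, against 20.6% of all genes, and 4 members (10.3%) were lower, against 7.48% of all genes. These shares were not tested against each other. The median log2 fold change was 0.23 over the members and 0.81 over the 35 receptors, beside 0.00406 over all genes. In whole animals, fewer cells of a type and less RNA per cell cannot be told apart.

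**Figure D1:**
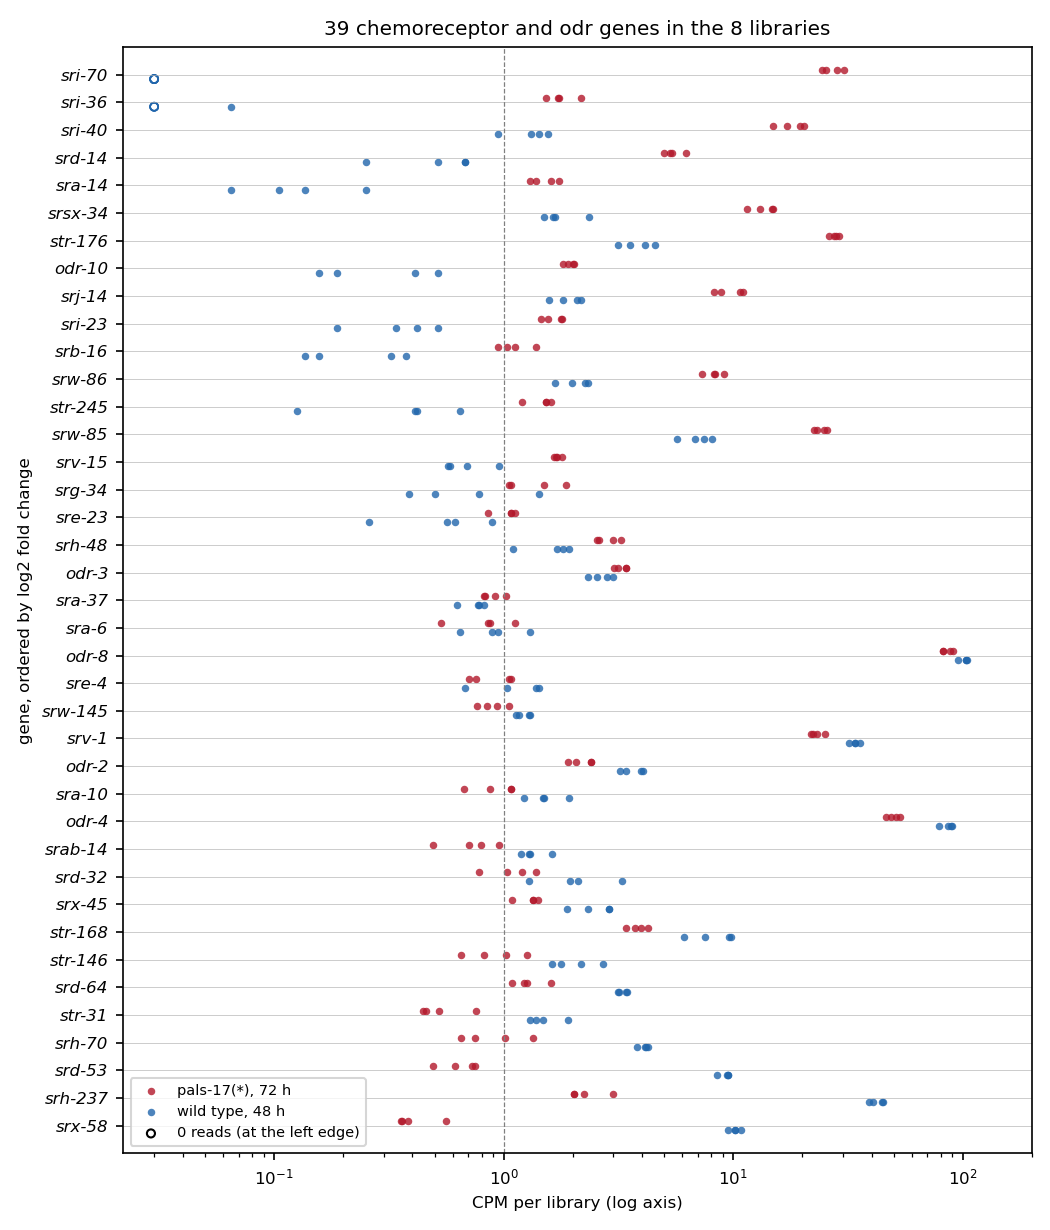
CPM of the 39 genes in each library on a log axis, with the pals-17(*) libraries in red above the wild-type libraries in blue, ordered by log2 fold change. Open circles at the left edge mark 0 reads, and the dashed line marks 1 CPM. The genes with the strongest rises, sri-70 and sri-36, had at most 1 wild-type read. The strains lie wholly apart for 33 of the 39 genes. Over all genes, the mutants lay wholly above the wild type for 41.2% and wholly below for 39%.

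The summed level of the 35 listed receptors was higher in mutants, and this is tied to the rule of the table. Of these receptors, 11 reached 1 CPM of the library's total in all mutant libraries and in no wild-type library. Another 3 did so the other way round. The sum is therefore no evidence about receptors as a whole, and it was not computed without these 11. The 35 receptors together had 195, 197, 185 and 190 CPM in mutants and 139, 152, 150 and 159 CPM in the wild type, a mean of 192 ± 5.08 CPM against 150 ± 7.92 CPM (SD, n = 4 each), so that the strains did not overlap. Without sri-70 the means were 165 CPM in mutants and 150 CPM in the wild type. The 4 odr genes that do not encode receptors summed to 141 ± 4.40 CPM in mutants and 194 ± 9.0 CPM in the wild type (SD, n = 4 each). Per 1000000 reads of the unscaled library total, the odr genes summed to 172.9 in mutants and 157.5 in the wild type, so the direction of this sum turned with the scaling. The sum over all 39 members was 332 ± 2.56 CPM in mutants and 344 ± 9.42 CPM in the wild type. This last sum was 409 in mutants and 279 in the wild type per 1000000 unscaled reads, so that its direction turned as well.

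The number of members with few reads is tied to the rule of the table, since more members were listed through the mutants than through the wild type. In mutants 38, 39, 39 and 39 members had 10 reads or more, against 29, 32, 29 and 31 members in wild-type libraries. At 1 CPM or more were 33, 31, 26 and 30 members in mutants and 26, 25, 26 and 27 members in the wild type, so that the strains overlapped by this measure. No member was at 0 reads in a mutant library, and 2, 2, 1 and 2 members were at 0 reads in the wild-type libraries. These were sri-70 in every wild-type library and sri-36 in 3 of them.

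All 4 listed sri genes, of the Str superfamily, were called higher past 4-fold, where 20.6% of all genes were, and the median of their log2 fold changes was 4.61. Of these, sri-70, sri-36 and sri-23 reached 1 CPM in no wild-type library and were thus listed through the mutants alone, so that their count is no evidence about the family. The gene sri-70 (V:17303054-17304438, plus strand) had 30.4, 28.4, 25.2 and 24.4 CPM in mutants and no read in any wild-type library. With a floor of 3 reads over the wild-type libraries (0.046 CPM), its 2781 mutant reads correspond to a level at least 587-fold higher in mutants. This bound takes it that both strains carry the same sequence at this gene, which was not tested. The gene sri-36 (II:2583732-2585593, minus strand) had 1.74, 1.52, 2.16 and 1.72 CPM in mutants, and its only wild-type read fell in replicate 3. Its 184 mutant reads against 1 wild-type read give a ratio of 117 (exact 95% counting interval 20.7 to 4.63e+03, counting error only). These were the only 2 members with 3 or fewer reads in a strain, and their fitted fold changes depend on the added 0.5 read.

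The other sri genes were measurable in both strains. The gene sri-40 had 14.9, 17.2, 19.5 and 20.4 CPM in mutants and 1.32, 0.940, 1.55 and 1.43 CPM in the wild type (log2 fold change 3.76 ± 0.18 (SE), adjusted p = 3.06e-08). Its lowest mutant library was far above its highest wild-type library. The annotated pseudogene sri-23 had a mean of 1.65 ± 0.162 CPM in mutants and 0.366 ± 0.139 CPM in the wild type (SD, n = 4 each) and was called higher with a log2 fold change of 2.14. With median centring its log2 fold change was 1.86, which is under 4-fold, and with quantile normalization it was 0.59 and not called (limma, adjusted p = 0.0747).

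The srd and srh families, also of the Str superfamily, were split. Of 4 srd genes, the pseudogene srd-14 was called higher, with 5.40, 5.32, 6.23 and 4.97 CPM in mutants and 0.251, 0.679, 0.517 and 0.681 CPM in the wild type (log2 fold change 3.37 ± 0.29 (SE), adjusted p = 2.04e-06). The other 3 were called lower. The gene srd-53 (I:7294038-7295794, plus strand) had 0.491, 0.615, 0.746 and 0.727 CPM in mutants, against 8.46, 9.51, 9.43 and 9.40 CPM in the wild type, and was thus 14.1-fold lower (log2 fold change -3.81 ± 0.17 (SE), adjusted p = 1.93e-08). For srd-64 the log2 fold change was -1.35, with strains apart, and for srd-32 it was -0.92, with overlapping strains.

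Among the srh genes the largest loss was at srh-237 (V:17090379-17091714, plus strand). It had 2.23, 3.01, 2.01 and 2.03 CPM in mutants and 38.98, 40.6, 44.97 and 44.6 CPM in the wild type, so that it was 18.3-fold lower in mutants (log2 fold change -4.19 ± 0.14 (SE), adjusted p = 3.56e-09). In wild-type libraries it had the highest level of all 35 receptors. The gene srh-70 fell to 1.34, 1.01, 0.746 and 0.650 CPM in mutants, against 4.26, 3.81, 4.13 and 4.16 CPM in the wild type. In contrast, srh-48 was called higher by 0.81 on the log2 scale, with 2.85 ± 0.342 CPM in mutants and 1.64 ± 0.372 CPM in the wild type (SD, n = 4 each).

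The str family had 2 genes called higher and 3 called lower. The gene str-176 (IV:8460999-8463816, minus strand) had the highest mean level of this family over the 8 libraries. It had 26.1, 28.1, 27.5 and 28.96 CPM in mutants and 4.14, 4.54, 3.55 and 3.13 CPM in the wild type, a 7.21-fold higher level (log2 fold change 2.85 ± 0.12 (SE), adjusted p = 1.69e-08). The other gene called higher was str-245, with 1.46 ± 0.178 CPM in mutants and 0.400 ± 0.213 CPM in the wild type (SD, n = 4 each). Log2 fold changes of str-168, str-146 and str-31 were -1.08, -1.15 and -1.47, with every mutant library below every wild-type library for each of the 3 genes. The only listed srj gene, srj-14, rose to 10.66, 11, 8.28 and 8.80 CPM in mutants, against 1.57, 2.09, 1.81 and 2.18 CPM in the wild type. Over the whole Str superfamily 9 of 17 genes were called higher and 8 lower, beside 42.5% higher and 41.2% lower over all genes. Every listed member of this superfamily was thus called, and the median log2 fold change was 0.81. The shares were not tested against each other.

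**Figure D2:**
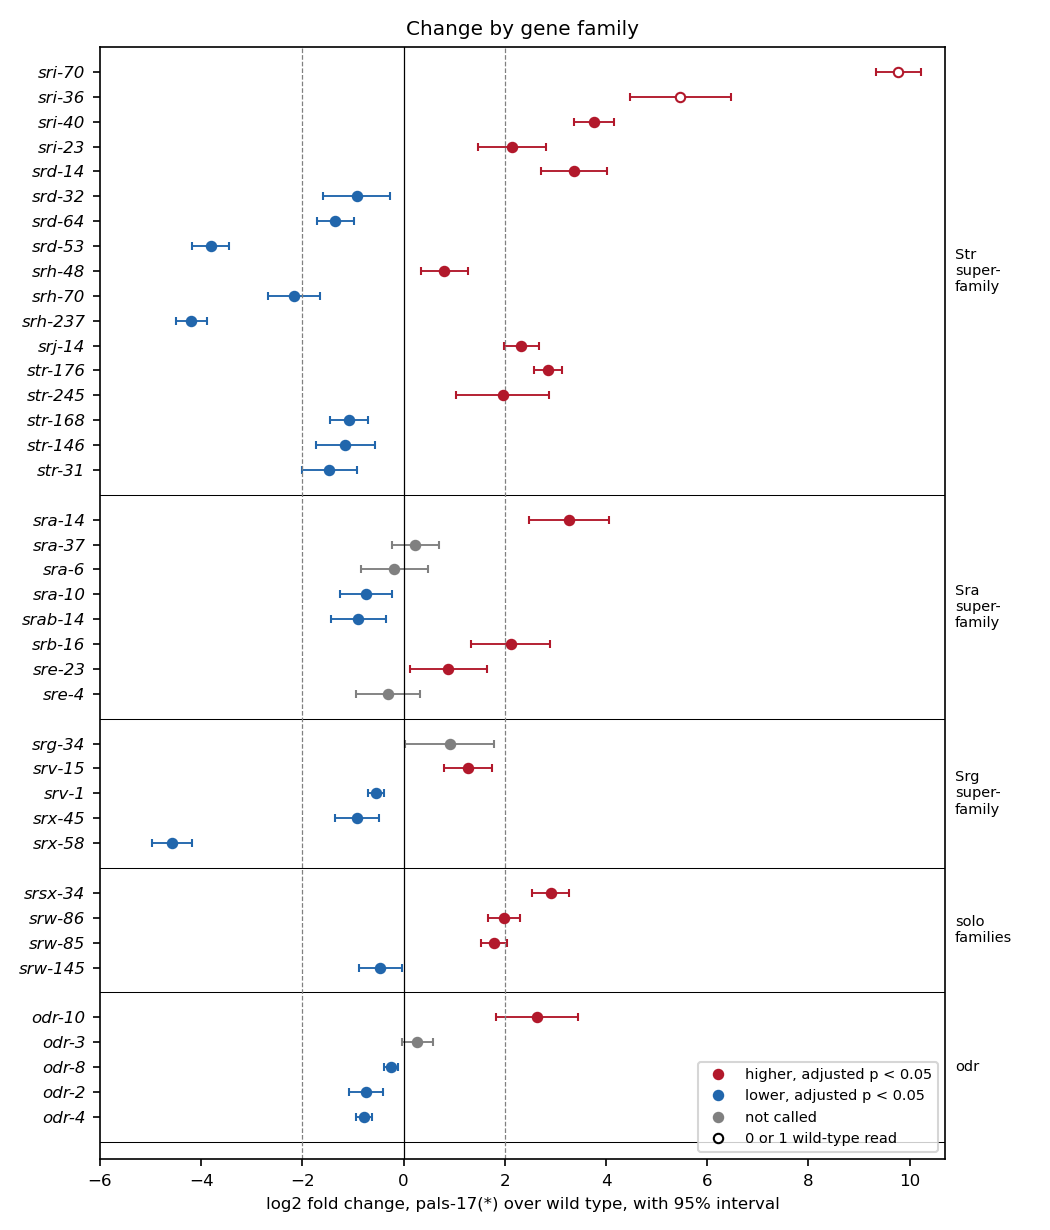
Log2 fold change of each gene, pals-17(*) over wild type, with its 95% interval from limma, grouped by family within the 3 superfamilies, the solo families and the odr genes. Dashed lines mark 4-fold, red points were called higher, blue points lower, and open points had 0 or 1 wild-type read. All 4 sri genes lie above 2, and srx-58, srh-237 and srd-53 lie below -3.

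In the Sra superfamily 3 of 8 genes were called higher, 2 lower and 3 not called, beside 42.5% higher and 41.2% lower over all genes, and the median log2 fold change was 0.027. The gene sra-14 (II:12885272-12888608, plus strand) had 1.74, 1.38, 1.30 and 1.61 CPM in mutants and 0.251, 0.104, 0.065 and 0.136 CPM in the wild type (log2 fold change 3.27 ± 0.35 (SE), adjusted p = 1.01e-05). Its strains lay far apart, but its wild-type level rested on few reads. The gene srb-16 was also called higher, with 1.12 ± 0.189 CPM in mutants and 0.248 ± 0.119 CPM in the wild type (SD, n = 4 each). The receptor gene sra-6, which is expressed in the nociceptive ASH neurons, had 1.12, 0.869, 0.858 and 0.536 CPM in mutants and 0.940, 1.31, 0.646 and 0.886 CPM in the wild type. The strains overlapped, and its log2 fold change was -0.18 (95% interval -0.84 to 0.48). The gene sra-37 had a log2 fold change of 0.23 (95% interval -0.22 to 0.69) and sre-4 one of -0.31 (95% interval -0.95 to 0.33), so that neither was called. The genes sra-10 and srab-14 were called lower, with log2 fold changes of -0.75 and -0.90. The gene sre-23 was called higher by 0.89 with overlapping strains, and the call was lost without mutant replicate 1, 2 or 4 or wild-type replicate 1 or 3, with adjusted p-values of up to 0.0756.

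In the Srg superfamily 1 of 5 genes was called higher and 3 lower, beside 42.5% higher and 41.2% lower over all genes. The median log2 fold change was -0.55. Both srx genes fell. The gene srx-58 (V:15352676-15353985, plus strand) had 0.357, 0.362, 0.559 and 0.382 CPM in mutants, against 10.2, 9.51, 10.2 and 10.8 CPM in the wild type. At 23.9-fold lower, it showed the largest decrease of the 39 genes (log2 fold change -4.58 ± 0.18 (SE), adjusted p = 9.74e-09). The gene srx-45 was at 1.29 ± 0.146 CPM in mutants and 2.49 ± 0.480 CPM in the wild type (SD, n = 4 each).

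The 2 srv genes differed in level and direction. The gene srv-1 (III:6850385-6853203, plus strand) had 22.3, 23.2, 21.9 and 25.02 CPM in mutants and 31.9, 34.05, 34.05 and 35.5 CPM in the wild type (log2 fold change -0.55 ± 0.07 (SE), adjusted p = 3.50e-05). This small decrease exceeded the spread of the libraries, but it rested on the scaling. It was not called with library totals (log2 fold change 0.044) or with centring on pan-neuronal genes (log2 fold change -0.029). The gene srv-15 was called higher, with 1.65, 1.70, 1.79 and 1.68 CPM in mutants and 0.689, 0.574, 0.582 and 0.954 CPM in the wild type. The gene srg-34 had 1.07, 1.05, 1.49 and 1.87 CPM in mutants and 0.501, 0.783, 0.388 and 1.43 CPM in the wild type. Its adjusted p of 0.0506 missed the threshold at a log2 fold change of 0.91 ± 0.39 (SE), and without wild-type replicate 4, its highest wild-type library, the log2 fold change was 1.26 with an adjusted p of 0.00372.

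Among the solo families, 3 of the 4 listed genes were called higher, where 42.5% of all genes were. The only listed srsx gene, srsx-34 (V:9035985-9040350, plus strand), had 14.9, 14.7, 11.5 and 13.04 CPM in mutants and 1.504, 2.35, 1.68 and 1.63 CPM in the wild type (log2 fold change 2.91 ± 0.16 (SE), adjusted p = 9.13e-08). The srw family, whose predicted proteins resemble neuropeptide receptors, had 2 genes called higher that lie 28.7 kb apart on chromosome V. The gene srw-85 had 25.6, 24.8, 23.1 and 22.6 CPM in mutants and 5.70, 8.04, 6.78 and 7.42 CPM in the wild type, and srw-86 averaged 8.25 ± 0.736 CPM in mutants and 2.06 ± 0.290 CPM in the wild type (SD, n = 4 each). Their folds were 3.45 and 3.98, both higher in mutants. The third gene, srw-145, was at 0.848, 1.05, 0.932 and 0.765 CPM in mutants and 1.13, 1.31, 1.16 and 1.29 CPM in the wild type. It was called lower at an adjusted p of 0.0453, and leaving out any 1 library except mutant replicate 2 ended the call, with adjusted p-values of up to 0.122.

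**Figure D3:**
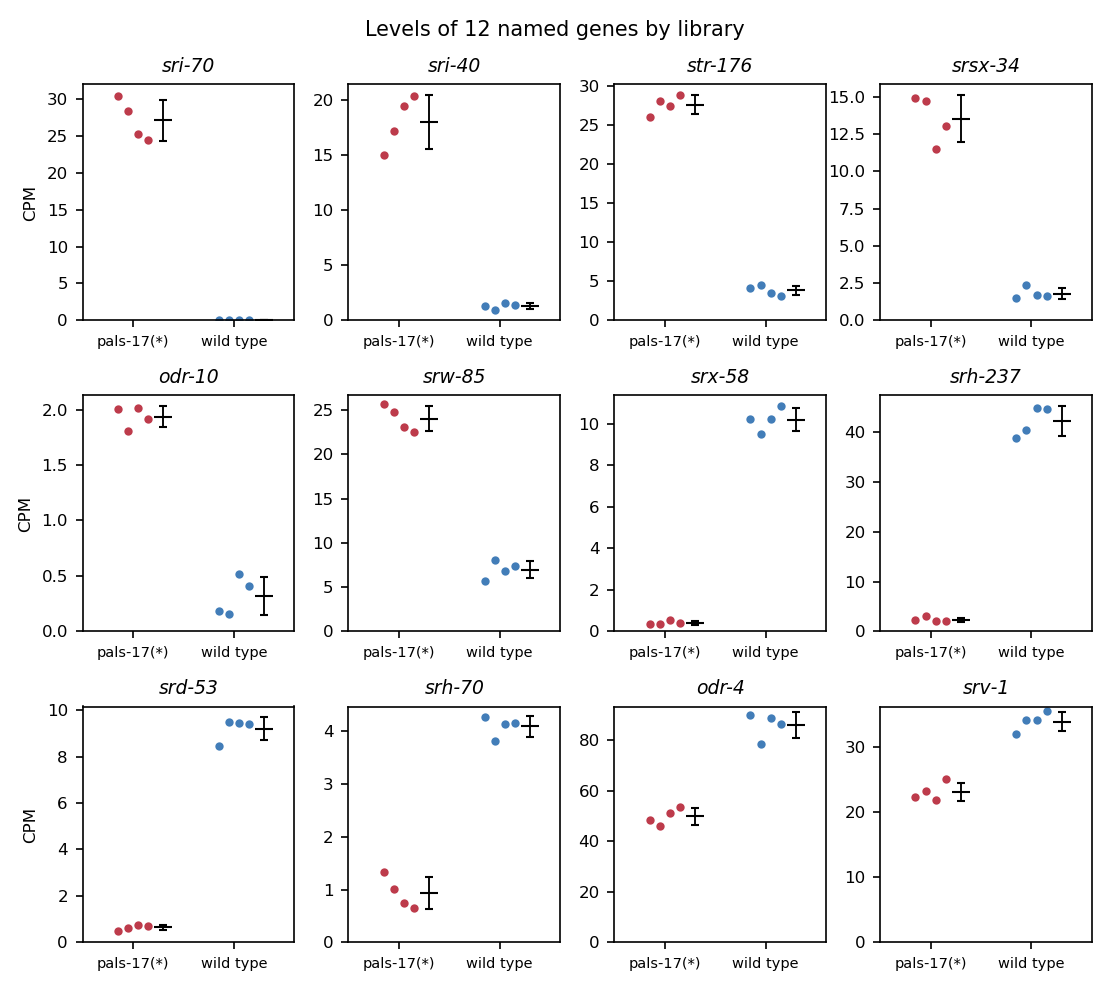
CPM of 12 genes by library on linear axes that start at 0, with the 4 pals-17(*) libraries left of the 4 wild-type libraries and the mean ± SD in black. The genes from sri-70 to srw-85 were higher in mutants, those from srx-58 to srv-1 were lower, and no gene shown has overlapping strains.

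The listed odr genes did not move together. Of these, odr-10 was listed through the mutants alone, whereas the other 4 reached 1 CPM in every library. The gene odr-10 (X:6864315-6865939, minus strand), which encodes the receptor for the food odor diacetyl in AWA neurons, had 2.01, 1.81, 2.01 and 1.91 CPM in mutants and 0.188, 0.157, 0.517 and 0.409 CPM in the wild type. It was 6.22-fold higher in mutants (log2 fold change 2.64 ± 0.36 (SE), adjusted p = 5.99e-05), and its highest wild-type library was below its lowest mutant library. The genes odr-4 and odr-8 encode proteins that act in the endoplasmic reticulum and are needed to bring ODR-10 and other receptors to the cilia. The gene odr-4 (III:6730800-6733936, plus strand) had 48.5, 46.1, 51.2 and 53.4 CPM in mutants, against 89.9, 78.5, 88.7 and 86.3 CPM in the wild type (log2 fold change -0.79 ± 0.07 (SE), adjusted p = 2.51e-06). For odr-8 the levels were 82.0, 87.8, 90.2 and 81.5 CPM in mutants and 104.1, 95.5, 103.5 and 102.9 CPM in the wild type. Its log2 fold change of -0.25 was called with strains apart, but its sign turned when libraries were scaled to totals, to pan-neuronal genes or by quantiles.

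The remaining odr genes act in olfactory signalling. The gene odr-3 encodes a G protein alpha subunit that couples odorant receptors to their channels, and it had 3.39, 3.15, 3.39 and 3.02 CPM in mutants and 2.82, 2.56, 2.33 and 3.00 CPM in the wild type. Although the strains did not overlap, its log2 fold change of 0.27 (95% interval -0.034 to 0.58) was not called. The gene odr-2, which encodes a membrane-associated protein needed for olfaction, was called lower, with 2.19 ± 0.249 CPM in mutants and 3.65 ± 0.400 CPM in the wild type (SD, n = 4 each) and a log2 fold change of -0.74. The call was lost with library totals (log2 fold change -0.14, adjusted p = 0.413) and with centring on pan-neuronal genes (log2 fold change -0.21, adjusted p = 0.192).

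Levels were compared between genes per kilobase of annotated exon. In mutants the order was led by odr-8 at 42.3 CPM per kb, sri-70 at 27.7, odr-4 at 24.3, srv-1 at 17.1, srw-85 at 16.9 and str-176 at 16.6 CPM per kb, where the means of the last 3 lay within 1 SD of each other in CPM per kb. In the wild type it was led by odr-8 at 50.3 CPM per kb, odr-4 at 41.8, srh-237 at 40.97, srv-1 at 25.1 and srx-58 at 11.9 CPM per kb, where odr-4 and srh-237 lay within their spread. The most abundant receptor transcript was thus sri-70 in mutants and srh-237 in the wild type. The median over all 39 members was 1.41 CPM per kb in mutants and 1.06 CPM per kb in the wild type.

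The neighborhood of the genes that changed most was examined next, after their values had been seen. For each of the 15 members called past 4-fold, the nearest listed gene on either side was taken. Of the 22 neighbors of the 11 genes that were higher, 17 (77.3%) were also called higher, beside the 42.5% over all genes, and 2 were called lower. Of the 8 neighbors of the 4 genes that were lower, 7 (87.5%) were also called lower, beside 41.2% over all genes. This was not tested, and genes listed because of 1 strain take part in it. It covers only the members with the largest changes, and neighbors of other called members went both ways. Both neighbors of sre-23 and of str-245, which were called higher, were called lower. For str-168, str-146 and odr-4, which were called lower, both neighbors were called higher. Both neighbors of srd-32, str-31 and srx-45 were called lower, as these genes were.

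Both neighbors of sri-70 shared its lack of wild-type reads. The genes K10G4.14, at a distance of 564 bases, and Y61B8B.2, at 1344 bases, lie on the same strand and had no read in any wild-type library. In mutants K10G4.14 had 4.73, 3.58, 3.69 and 3.71 CPM, which is 401 reads in all, and Y61B8B.2 had 1.96, 2.32, 1.79 and 1.95 CPM, which is 207 reads. All 3 genes were therefore detected in mutant libraries alone, and whether the 2 strains differ in sequence at this region cannot be told from these values. Next to srh-237, T05E12.6 fell to 78.6, 74.03, 55.2 and 52.9 CPM in mutants, against 1128, 1073, 1222 and 1205 CPM in the wild type, and ZK218.1 fell to a mean of 0.239 CPM in mutants, against 3.51 CPM in the wild type. These genes flank srh-237 at 937 and 848 bases, and T05E12.6 lies on the opposite strand. Beside odr-10, nep-4 lies 891 bases away on the same strand and rose to a mean of 18.8 CPM in mutants, against 0.392 CPM in the wild type. Both neighbors of srx-58, clec-230 and C29F3.7, were called lower too, with log2 fold changes of -1.67 and -2.19. In contrast, the nearest listed genes around sri-40, chil-24 and Y27F2A.6, had log2 fold changes of 0.064 and -0.58. They lie at distances of 46549 bases and 1 base from sri-40.

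**Figure D4:**
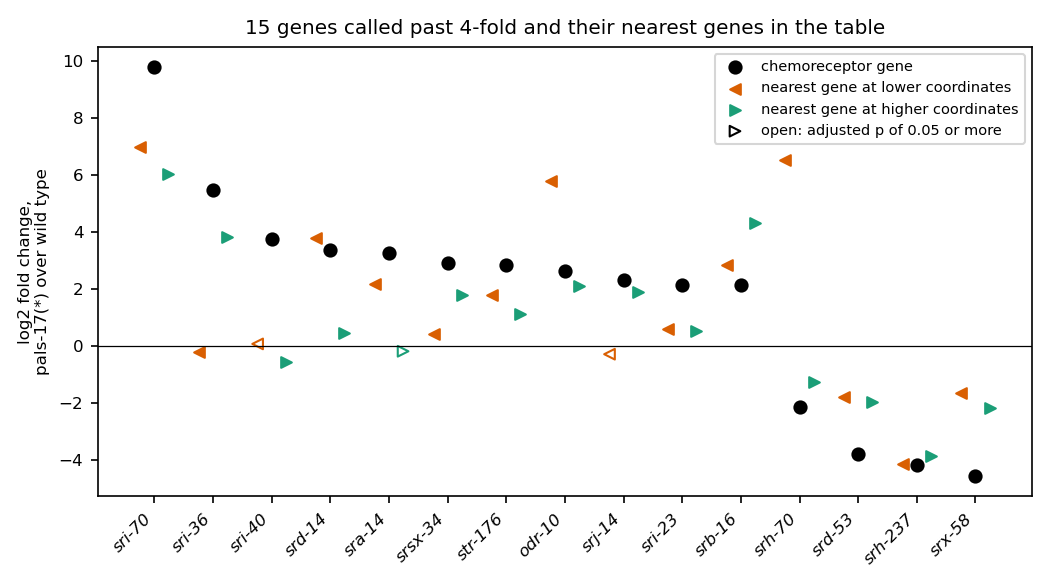
Log2 fold change, pals-17(*) over wild type, of the 15 genes called past 4-fold in black and of the nearest listed gene on each side in color, with open symbols where the neighbor was not called. Both neighbors moved in the same direction for 7 of the 11 genes on the left and for 3 of the 4 genes on the right. The strongly raised neighbor of srh-70 lies 31568 bases away.

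Some members share exon sequence with other listed genes. On the opposite strand, srh-48 shares 586 bases with C06C3.5, srab-14 shares 490 bases with spi-1, and sre-4 shares 249 bases with T13F2.6. The libraries were made with a stranded kit, but the strand setting of the counting is not given in the sources used here, so reads of these pairs may not have been told apart. Their partners' log2 fold changes were 1.36, -2.27 and 3.72, beside 0.81, -0.90 and -0.31 for the receptors. On the same strand, srd-53 shares 120 bases with F13G3.12, which had a log2 fold change of 1.19, in the other direction from srd-53. The families also hold close paralogs, and how reads that fit several copies were assigned is not given in the sources used here.

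Many calls depended on the scaling between strains. These were mostly smaller changes, but sri-23 and srb-16, called past 4-fold under the deposited scaling, were not called with quantiles. The authors' scaled library sizes were 1.20 to 1.26 times the recovered reads in mutants and 0.793 to 0.822 times in the wild type. Scaling to library totals shifted the median log2 fold change of all genes by 0.596, centring on 15 pan-neuronal genes by 0.524, centring on library medians by -0.278 and quantile normalization by -0.121. Of all called genes, 50.8% were higher under the deposited scaling, 72.1% with library totals and 70.03% with pan-neuronal genes. With library totals 21 members were called higher and 8 lower, in place of 17 each, and 11 were called higher with quantiles, in place of 17. Of all 14541 genes, 8742 were called higher and 3390 lower with library totals, and 5687 were called higher with quantiles. Across these shifts, 11 members were called higher and 8 were called lower under the deposited scaling and all 4 others. The share of all genes that kept their calls in this way was not computed. The 11 genes were sri-70, sri-36, sri-40, srd-14, sra-14, srsx-34, str-176, odr-10, srj-14, srw-86 and srw-85. The 8 genes were srx-58, srh-237, srd-53, srh-70, str-31, srd-64, str-168 and odr-4. Each other called member lost its call or turned under at least 1 of them. The directions of srv-1, odr-8, srw-145, sra-6 and sre-4 turned positive with library totals, where only odr-8 was called.

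**Figure D5:**
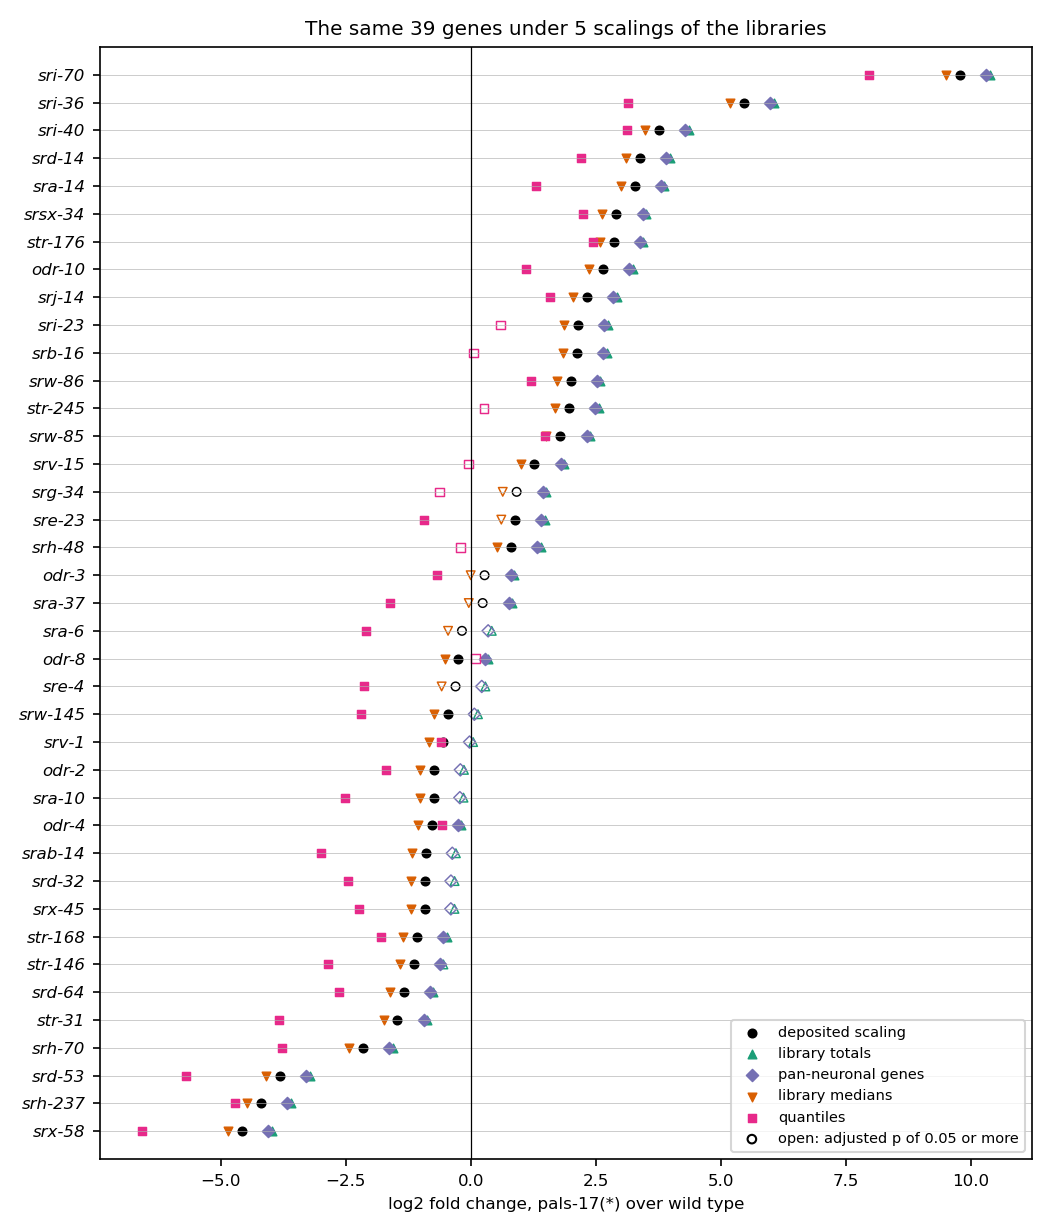
Log2 fold change, pals-17(*) over wild type, of the 39 genes under the deposited scaling and 4 others, with filled symbols where the gene was called. The symbols from sri-70 down to srw-85 stay filled apart from sri-23, srb-16 and str-245, and those from srd-64 down to srx-58 all stay filled, whereas many symbols from srv-15 to srx-45 cross 0 or are open.

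Genes of the chemosensory pathway also moved in both directions. Of 35 listed chemosensory signalling genes, 21 were in the table, with 5 called higher, 10 lower and 6 not called. The median log2 fold change was -0.16, and over all genes 42.5% were called higher and 41.2% lower. This list takes in the members odr-3, odr-4 and odr-8, so that odr-4 and odr-8 are counted again among these 10 lower calls. With library totals 12 genes of the list were called higher and 6 lower, so its balance turned with the scaling. The G protein alpha subunit genes gpa-6 and gpa-9 rose, with gpa-6 at 15.6 ± 1.37 CPM in mutants and 2.71 ± 0.477 CPM in the wild type (SD, n = 4 each). In contrast, the alpha subunit gene gpa-17 fell to 19.7 ± 1.05 CPM in mutants, against 81.6 ± 3.09 CPM in the wild type (SD, n = 4 each). The arrestin gene arr-1, the calcineurin gene tax-6 and the gamma subunit gene gpc-1 were called lower with log2 fold changes of -1.19, -1.12 and -1.01.

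Receptor guanylyl cyclases are another class of sensory receptors. Of 27 such genes 10 were in the table, and 7 were called higher, 1 lower and 2 not called, beside 42.5% higher and 41.2% lower over all genes, with a median log2 fold change of 1.24. With quantile normalization 4 were called higher, and the shares were not tested against each other. Among them gcy-9, which encodes the carbon dioxide sensor of BAG neurons, had 1.83, 1.81, 1.45 and 1.91 CPM in mutants and 0.125, 0.157, 0.194 and 0.204 CPM in the wild type. The thermosensory gene gcy-18 had 1.73 ± 0.311 CPM in mutants and 0.490 ± 0.126 CPM in the wild type (SD, n = 4 each). The rule by which genes entered the table applies to these weakly expressed genes as it does to the chemoreceptors.

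Genes of neurons and cilia in general are given beside the 41.2% of all genes that were called lower. Of 15 pan-neuronal genes 1 was called higher, 10 lower and 4 not called, and the median log2 fold change was -0.39. Of the 21 listed cilium genes 2 were called higher, 8 lower and 11 not called, with a median of -0.26, so that their lower calls were about as frequent as over all genes. Only 4 of them were called lower without mutant replicate 4, and 5 without wild-type replicate 4. Of the 17 listed transcription factors of sensory neurons 5 were called higher and 8 lower. The largest rises were those of ceh-37, vab-3, lin-11 and hlh-2, of which lin-11 and hlh-2 also act in the vulva and gonad. The gene daf-19 is on both the cilium and the transcription factor list and counts among the lower calls of each. With the library totals, 7 pan-neuronal genes were called higher and 4 lower, so the direction of this list also rested on the scaling.

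Markers of other tissues moved with strain in all of these comparisons. Over all genes 42.5% were called higher and 41.2% lower. All 19 sperm genes and all 18 oocyte and early embryo genes were called higher, none of them lower. The summed level of the sperm genes was between 697 and 813 CPM in mutants and between 53.9 and 101.3 CPM in the wild type, and that of the oocyte and embryo genes between 3989 and 5395 CPM in mutants and between 87.0 and 254 CPM in the wild type. All 8 intestinal genes and all 10 cuticle genes of the molt were called lower. The summed level of the intestinal genes was between 5312 and 6454 CPM in mutants and between 22050 and 24780 CPM in the wild type, and that of the cuticle genes between 927 and 1140 CPM in mutants and between 6018 and 6946 CPM in the wild type. Of 7 genes of amphid glia 2 were called higher and 5 lower, with summed levels of 61.4 to 74.4 CPM in mutants and 169 to 193 CPM in the wild type. None of these markers was at 0 reads in either strain. Their part in the values of the chemoreceptor genes was not tested.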

How the data were processed

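TruSeq Stranded mRNA libraries from total RNA of whole animals were analyzed for 4 pals-17(*) and 4 wild-type samples. Paired-end reads were mapped by the authors to the WS235 genome with Rsubread, counted with featureCounts, filtered for genes under 1 CPM and normalized with limma-voom in Galaxy. The deposited table holds log2 CPM, where 0.5 is added to each read count before division by a scaled library size. The scaling method, annotation, strand setting and versions are not given in the sources used here. Whole reads were recovered from the steps of the values (100% within 0.01 of a whole number), and 1 entry without a gene name (0.00417% of the reads) was left out. Strains were compared with limma 3.58.1 (R 4.3.3), fitted to the log2 table without weights and with a prior variance that follows intensity, with 2-sided tests and Benjamini-Hochberg adjustment over 14541 genes. The script was tested on simulated data. Printed CPM are recovered reads over the scaled size without the 0.5, and fold changes, which come from the log2 values, understate changes of genes with few reads. Floors and counting intervals cover no other error than that of counting.

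The members, lists and tests were chosen with earlier results of these data known. Named genes were all odr genes, the 10 members with the highest mean, the highest member of the larger families, the largest changes with strains apart, receptors with a known neuron or ligand, and genes at 0 reads. The other members and the neighboring genes were named after their values were seen. With 4 against 4 libraries an exact permutation test of a single value cannot go below p = 0.0286, and none was used. Alternatives were other scalings, offsets, filters, weights and variance priors, a stricter threshold, thinned reads, the replicate number as a term and each library left out. Coordinates and exon lengths come from Ensembl release 115 (WBcel235), which holds all 39 members. No receptor sequences were used here.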

Additional observations from a re-analysis of the deposited data

Results flagged for a closer look

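In 4 of the 78 groups of 4 libraries examined, 1 library stood apart from the other 3 (a gap to the nearest library past Dixon's 95% critical value), where chance gives about 1 in 20 groups. On the log2 CPM scale, srx-58 was highest in mutant replicate 3 at -0.79 (0.559 CPM), and sre-23 was lowest in the same library at -0.19 (0.858 CPM). In the wild type, odr-8 was lowest in replicate 2 at 6.58 (95.5 CPM), and srd-53 was lowest in replicate 1 at 3.09 (8.46 CPM). The calls of srx-58, odr-8 and srd-53 did not depend on these libraries, and the call of sre-23 held without mutant replicate 3.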

How the results depend on the processing

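Of the 39 members, 19 kept their direction and call under all 20 alternatives that tested them (a filter at 1 CPM in 4 libraries left 35 members), 20 changed in at least 1, and 11 of these reversed in at least 1. Between 16 and 18 members were called higher and between 16 and 17 lower when each library was left out in turn, and between 11 and 12 were higher and 4 lower past 4-fold. With library totals 8 members were called lower and with pan-neuronal genes 9, in place of 17. Of all 14541 genes, 3390 and 3569 were called lower under these scalings, in place of 5994. Quantile normalization gave 11 members called higher, and past 4-fold 6 higher and 14 lower. Adding 1 CPM left 5 higher past 4-fold. With library totals the median log2 fold changes were 0.83 (all members), 1.40 (Str), 0.62 (Sra), 0.044 (Srg) and 2.49 (solo families), and with library medians -0.043 (all members), 0.53 (Str), -0.25 (Sra) and 1.61 (solo families). Without the odr genes that encode no receptor the median was 0.81. As shares of library reads, the summed level in mutants over that in the wild type was 1.46 for all members (0.967 as CPM) and 1.93 for receptors (1.28 as CPM). Thinned to the smallest library, 38 members had 10 reads or more in mutants in every library.

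With library totals, reversed log2 fold changes were 0.29 (sre-4), 0.42 (sra-6), 0.044 (srv-1), 0.35 (odr-8) and 0.14 (srw-145). With pan-neuronal genes they were 0.34 (sra-6), 0.068 (srw-145), 0.22 (sre-4) and 0.27 (odr-8). With library medians they were -0.043 (sra-37) and -0.0050 (odr-3). With quantiles they were -0.21 (srh-48), -0.94 (sre-23), -0.68 (odr-3), -0.055 (srv-15), -0.63 (srg-34), -1.61 (sra-37) and 0.088 (odr-8). Without mutant replicate 4, sra-6 was at 0.018 (range over left-out libraries -0.34 to 0.018). The causes were not tested.

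Among the companion lists, library totals gave 12 higher and 6 lower chemosensory signalling genes, 0 lower cyclases, 10 higher and 2 lower transcription factors, 8 higher and 2 lower cilium genes, and 7 higher and 4 lower pan-neuronal genes. Centring on pan-neuronal genes gave 12 and 6, 0 lower, 9 and 2, 7 and 2, and 5 and 5 in the same order. Library medians gave 2 lower cyclases, 16 lower cilium genes and 0 higher pan-neuronal genes. Quantiles gave 3 higher signalling genes, 4 higher cyclases, and 0 higher and 19 lower cilium genes. Precision weights gave 0 higher pan-neuronal genes. Leaving out libraries gave 1 to 2 lower cyclases (2 without mutant replicate 1), 4 to 9 lower cilium genes and 0 to 1 higher pan-neuronal genes.

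Samples with the same replicate number did not deviate together (correlations 0.073, 0.062, 0.0076 and -0.017), and not every sample correlated best with its own number. With the replicate number as a block, 12200 genes were called in place of 12174, srg-34 was called (adjusted p = 0.0314) and srw-145 was not (adjusted p = 0.0992), and 2 cyclases and 5 cilium genes were lower and 0 pan-neuronal genes higher. Of the members, srw-145, sre-23 and srg-34 rested on values near the threshold, and a read is worth up to 0.0681 CPM, which limits members below 1 CPM.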
